A study of Mus musculus with 9 samples.

Results

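The genes described here are named for the proteins of the cytosolic ribosome, and most encode them. They are the 90 of 30128 genes in the deposited table whose symbol is Rpl or Rps followed by a digit, or is Rplp0, Rplp1, Rplp2 or Rpsa. Rows with a pseudogene name ending in -ps (199), and the Rps6k kinase genes with Rps19bp1 (11 together), were left out by name. Of the 90, 77 encode core proteins of the standard ribosome, 31 in the small and 46 in the large subunit, and 13 are paralogs or retrotransposed copies such as Rpl3l, Rpl22l1 and Rps27l. A filter on low values (RPKM, reads per kilobase of gene length, of at least 0.5 in at least 3 libraries) left 88 to test and removed Rpl39l and Rps12l1.

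Polyadenylated RNA of left ventricular tissue was sequenced in 9 mouse libraries, 3 per group. Control mice were wild type, with no virus named in their labels. Both other groups were db/db, that is, mutant in the leptin receptor (Lepr), which makes mice obese and diabetic. The AAV9_null group had received adeno-associated virus of serotype 9 without USP28 (null virus). In the AAV9_USP28 group the virus carried USP28, an enzyme that removes ubiquitin from proteins, driven by the promoter of cardiac troponin T, a gene of cardiomyocytes (USP28 virus). The purpose given is to learn what raising USP28 does to the diabetic heart. Genotype and virus therefore change together between control and both other groups, and their effects cannot be told apart there. The labels give no strain, age or sex, nor whether replicate libraries came from different mice, so p-values here reflect only the scatter among these samples, which may be technical.

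A ribosome has a small subunit, which reads the messenger RNA, and a large subunit, which joins amino acids. Each carries its own set of proteins, most of them present once per particle and needed for its assembly. Messenger RNAs of ribosomal proteins begin with a C followed by a run of pyrimidines, the terminal oligopyrimidine (TOP) motif, through which mTORC1 and the RNA-binding protein Larp1 set their translation and stability. Heart muscle also makes Rpl3l, a striated-muscle paralog that takes the place of Rpl3 in the large subunit.

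The starts of 11 genes are shown because they bear on the motif and on the genes that stood at either end of the response. RefSeq promoter windows on GRCm38.p6 were at hand for 65 of the 90 symbols. Each line below gives 45 bases before and 15 bases from the annotated start, 5′ to 3′ on the gene's strand. Capitals mark CTTTT or CTTTC whose C lies within 5 bases of the start. The first 4 genes have such letters, which are only some of the forms the motif can take. Rps15a has no capitals, yet its annotated start is a C followed by pyrimidines, and in Rps9 a run of pyrimidines spans the start. Rps28, Rps9 and Rps15a were among the members with the smallest p against control, and the last 4 are paralogs.
Rplp2: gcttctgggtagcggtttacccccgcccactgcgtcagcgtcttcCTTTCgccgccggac
Rps6: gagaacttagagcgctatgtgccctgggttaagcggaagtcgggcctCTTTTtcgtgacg
Rpl28: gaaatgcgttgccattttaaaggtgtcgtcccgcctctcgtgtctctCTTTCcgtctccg
Rps27: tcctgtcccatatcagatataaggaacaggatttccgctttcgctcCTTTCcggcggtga
Rps28: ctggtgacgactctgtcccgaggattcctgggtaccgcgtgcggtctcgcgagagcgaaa
Rps9: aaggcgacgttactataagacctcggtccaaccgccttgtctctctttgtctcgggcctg
Rps15a: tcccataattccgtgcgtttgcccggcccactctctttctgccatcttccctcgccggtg
Rpl3l: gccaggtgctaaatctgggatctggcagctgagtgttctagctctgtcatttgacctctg
Rpl7l1: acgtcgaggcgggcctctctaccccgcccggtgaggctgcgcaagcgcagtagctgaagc
Rps27l: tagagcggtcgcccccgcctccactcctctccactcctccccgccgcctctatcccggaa
Rpl22l1: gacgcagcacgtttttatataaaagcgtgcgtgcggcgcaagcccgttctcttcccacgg
On the plus strand lie Rplp2 at chr7:141447606-141447665, Rpl28 at chr7:4792920-4792979, Rps9 at chr7:3703996-3704055, Rpl3l at chr17:24727781-24727840, Rps27l at chr9:66946041-66946100 and Rpl22l1 at chr3:28805463-28805522. On the minus strand lie Rps6 at chr4:86857353-86857412, Rps27 at chr3:90213634-90213693, Rps28 at chr17:33824548-33824607, Rps15a at chr7:118116133-118116192 and Rpl7l1 at chr17:46782642-46782701.

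Over all windows of the members, 14 of 77 (18.2%) held CTTTT or CTTTC on the gene's strand with the C within 5 bases of the start, against 2.99% of all 32851 windows. TATAAA, the TATA box, was found on either strand anywhere in the 250 bases before and 50 bases from the start in 9.09% of the members' windows and in 13.6% of all windows. CCGGAAG, the core of an ETS-family motif chosen after the sequences had been seen, was found in 35.1% of the members' windows and in 8.86% of all windows. These matches are descriptions of letters, not of sites in use. CTTTT and CTTTC cover only part of the TOP motif, so members without them can still begin with it. The medians that follow therefore do not compare members with and without the motif. The members with letters near the start had a median log2 difference of 0.80 between null virus and control (14 members), and those without had 0.86 (50 members), or 0.47 and 0.53 when null virus replicate 1 was left out.

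The 88 members tested were among the most abundant transcripts per length. Their median was 44.7 scaled RPKM, where all 14104 genes tested had 2.56, and 79 of them exceeded 5 in every library. They lie on 19 chromosomes, with 15 of the 90 on chromosome 7 and 8 each on chromosomes 9 and 17. Their models are short, with a median of 1647 bases (374 to 6270) against 3264 for all genes tested. Between 20 and 43620 reads stood behind each value of the members tested.

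Library depth ran from 35970332 to 56497662 reads. Ventricular cardiomyocyte markers were high throughout. Their summed RPKM (8 genes) was 29843 to 34234 in control, 38203, 26655 and 25050 under null virus, and 27460 to 31578 under USP28 virus. Lymphocyte markers were near 0 (7 genes, 0.225 to 0.505 summed, none above the filter). Null virus replicate 1 stood apart from the other libraries of its group: its scaling factor was 0.838 where the others ran from 0.964 to 1.09, and its chi-square per degree of freedom against replicates 2 and 3 was 117 and 144, where the other pairs within a group had 19.1 to 55.1. The members' calls and most of their log2 differences gene by gene are therefore given with and without it. In bulk tissue, fewer cells of a type and less RNA per cell cannot be told apart.

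Ribosomal protein genes were higher in the db/db hearts that had received null virus than in control hearts, across both subunits. Of 88 members, 57 rose and 0 fell (limma, adjusted p under 0.05), where 10.2% of all genes tested rose and 12.2% fell. At an unadjusted p under 0.05, 79 were higher and 0 lower (18.1% and 19.9% of all genes), and limma voom on the reads recovered from the table called 75 higher and 0 lower. The median log2 difference was 0.85, with a range from -0.23 to 1.17, beside 0.01 for all genes. In 79 members all 3 null-virus libraries lay above all 3 controls, where 19.5% of all genes did so. Without null virus replicate 1 the median fell to 0.51, 78 members were called higher and 1, Rpl7l1, lower, where 15.1% and 16.6% of all genes were called. All 57 members called with 9 libraries were among those 78. The standard errors of the differences were 0.12 to 0.36 with that library and 0.05 to 0.29 without it.

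The number of calls depended on the libraries in the fit more than the direction did. The count of members called higher was 5, 2 and 4 without control replicates 1, 2 and 3, was 23, 23 and 22 without USP28-virus replicates 1, 2 and 3, and was 64 and 77 without null-virus replicates 2 and 3. A fit of these 2 groups alone called 5, and a fit without the filter called 6. The median log2 difference stayed between 0.51 and 1.03 when each library was left out in turn. In those fits the calls over all genes, in either direction, also varied, from 1459 to 4436.

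**Figure D1:**
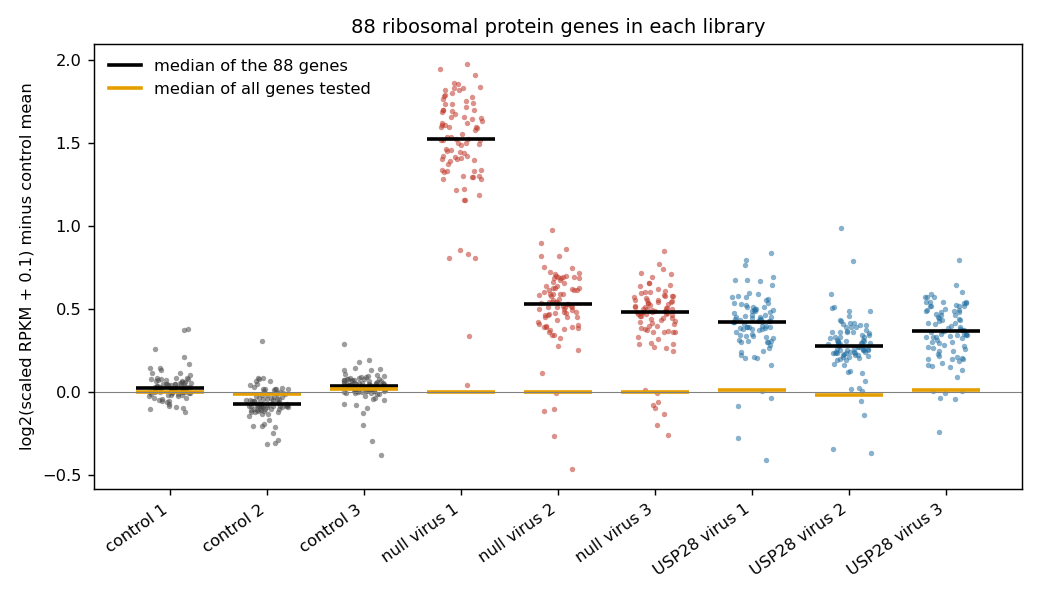
Log2 departure from the control mean (vertical axis, log2 of scaled RPKM + 0.1) of the 88 members tested, in each of 9 libraries; points are genes, black lines their median and orange lines the median of all genes tested. The member medians are 1.52, 0.53 and 0.48 under null virus and 0.42, 0.27 and 0.36 under USP28 virus, while the 3 controls lie between -0.07 and 0.04.

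The members shifted together within each library. Their median departure from the control mean was 0.02, -0.07 and 0.04 in the 3 controls, 1.52, 0.53 and 0.48 under null virus, and 0.42, 0.27 and 0.36 under USP28 virus. Null virus replicate 1 was the highest of 9 libraries in all 88 members, where it was highest in 27.6% of all genes tested. All 6 db/db libraries lay above all 3 controls in 74 of 88 members, where 11.6% of all genes showed that pattern. Among the 77 core members, the level in null virus replicate 1 was 1.71 to 2.48 times the mean of replicates 2 and 3, with a median of 2.08. The order of group means, null virus over USP28 virus over control, held in 77 of 77 core members, and in 73 with null virus replicate 1 left out. How many of all genes had that order was not counted, and the members share the same libraries, so these counts are a description. As a share of all summed RPKM, the 90 members held 0.86%, 0.784% and 0.817% in control, 1.91%, 1.29% and 1.2% under null virus, and 1.3%, 0.992% and 1.15% under USP28 virus.

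Small-subunit genes showed a median log2 difference of 0.91 between null virus and control, with 23 of 31 higher, and 30 of 31 higher without null virus replicate 1. Rps28, which sits near the messenger RNA exit channel of the small subunit, rose most clearly. Its level was 8.58, 7.1 and 9.01 scaled RPKM in control, 26.8, 16.2 and 14.8 under null virus, and 14.3, 14.2 and 14.3 under USP28 virus. Every db/db library was above every control, and the USP28-virus libraries lay below all null-virus libraries. The gene (chromosome 17, 33819027 to 33824562) went from 8.23 ± 0.998 to 19.3 ± 6.59 (SD, n = 3), a log2 difference of 1.17 (SE 0.21, adjusted p = 0.0058, limma), and of 0.91 (SE 0.10, adjusted p = 0.00074) without null virus replicate 1.

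Rps9, a protein of the small-subunit body that is bound early in assembly, had 25, 22.5 and 24.4 scaled RPKM in control, 72.6, 38.6 and 39.3 under null virus and 36.1, 34.1 and 33.7 under USP28 virus. The 3 groups did not overlap. Rps9 rose from 24 ± 1.3 in control to 50.2 ± 19.4 (SD, n = 3, adjusted p = 0.014, limma), and without null virus replicate 1 by a log2 difference of 0.70 (SE 0.07, adjusted p = 0.00048). Rps15a followed the same course, with 2.95, 3.23 and 3.34 in control, 10.5, 5.83 and 5.05 under null virus and 4.36, 3.63 and 4.58 under USP28 virus. Its groups also kept apart, and its log2 difference from control was 1.07 (adjusted p = 0.016), or 0.76 without null virus replicate 1.

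Rps24, 1 of the 3 members with the highest level per length, stood at 376, 332 and 365 scaled RPKM in control and at 1231, 563 and 533 with null virus, then at 501, 459 and 500 with USP28 virus. It rose by 1.01 (SE 0.28, adjusted p = 0.035), and by 0.62 without null virus replicate 1. Rps13 had 13, 13.8 and 14.8 in control, 32.4, 18.4 and 19.2 under null virus, then 16, 14.1 and 15.9 under USP28 virus, and its USP28-virus libraries overlapped the controls. Its difference from control was 0.70 (adjusted p = 0.035), or 0.44 without null virus replicate 1.

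Rpsa, the small-subunit protein that is also known as a laminin receptor, was at 51, 49.1 and 51.5 scaled RPKM in control and at 131, 64.8 and 62 with null virus. These groups did not overlap, yet the log2 difference of 0.68 (SE 0.25) had an adjusted p = 0.083 and did not pass. Without null virus replicate 1 the difference was 0.33 (SE 0.07) and passed (adjusted p = 0.0083). Rps4x, a small-subunit gene on chromosome X, went from 61, 53.9 and 61.2 to 160, 83 and 78.5, and had 82.8, 77.7 and 81.1 with USP28 virus. It rose by 0.79 (adjusted p = 0.045), and by 0.46 without null virus replicate 1 (adjusted p = 0.003).

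Large-subunit genes had a median log2 difference of 0.85, with 30 of 46 higher, and 44 of 46 higher without null virus replicate 1. Rplp0, Rplp1 and Rplp2 form the stalk that recruits elongation factors to the large subunit. Rplp0 stood at 52.4, 46.3 and 55.1 scaled RPKM in control, 147, 70 and 72.3 under null virus and 72, 65.5 and 69.2 under USP28 virus, and rose by 0.82 (SE 0.25, adjusted p = 0.047, limma). Rplp1 had 145, 144 and 166, then 534, 223 and 219, then 225, 185 and 211. For Rplp2 the values were 82.1, 75.9 and 83.5, then 233, 117 and 101, then 102, 92.1 and 101. In all 3 stalk genes every db/db library exceeded every control. The differences of Rplp1 (0.97, adjusted p = 0.051) and Rplp2 (0.80, adjusted p = 0.059) missed the threshold with 9 libraries. All 3 passed without null virus replicate 1, at 0.48, 0.55 and 0.44 for Rplp0, Rplp1 and Rplp2.

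The other 2 members of highest level belong to the large subunit. Rpl23a, at the mouth of the tunnel through which the new protein leaves, had 504, 450 and 510 scaled RPKM in control, 1131, 653 and 595 under null virus and 544, 556 and 579 under USP28 virus. All db/db libraries were above all controls, and the difference between null virus and control was 0.64 (adjusted p = 0.066), which did not pass, or 0.35 (adjusted p = 0.011) without null virus replicate 1. Rpl19 stood at 302, 292 and 312, then 909, 427 and 422, then 425, 379 and 421, and rose by 0.86 (adjusted p = 0.048), or 0.49 (adjusted p = 0.0018) without that library. Rpl10, a late-joining protein encoded on chromosome X, had 22, 23.1 and 23.3, then 67.1, 32.7 and 33.2, then 36.4, 30.8 and 32.3. It rose by 0.87 (adjusted p = 0.036), and by 0.53 without null virus replicate 1.

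**Figure D2:**
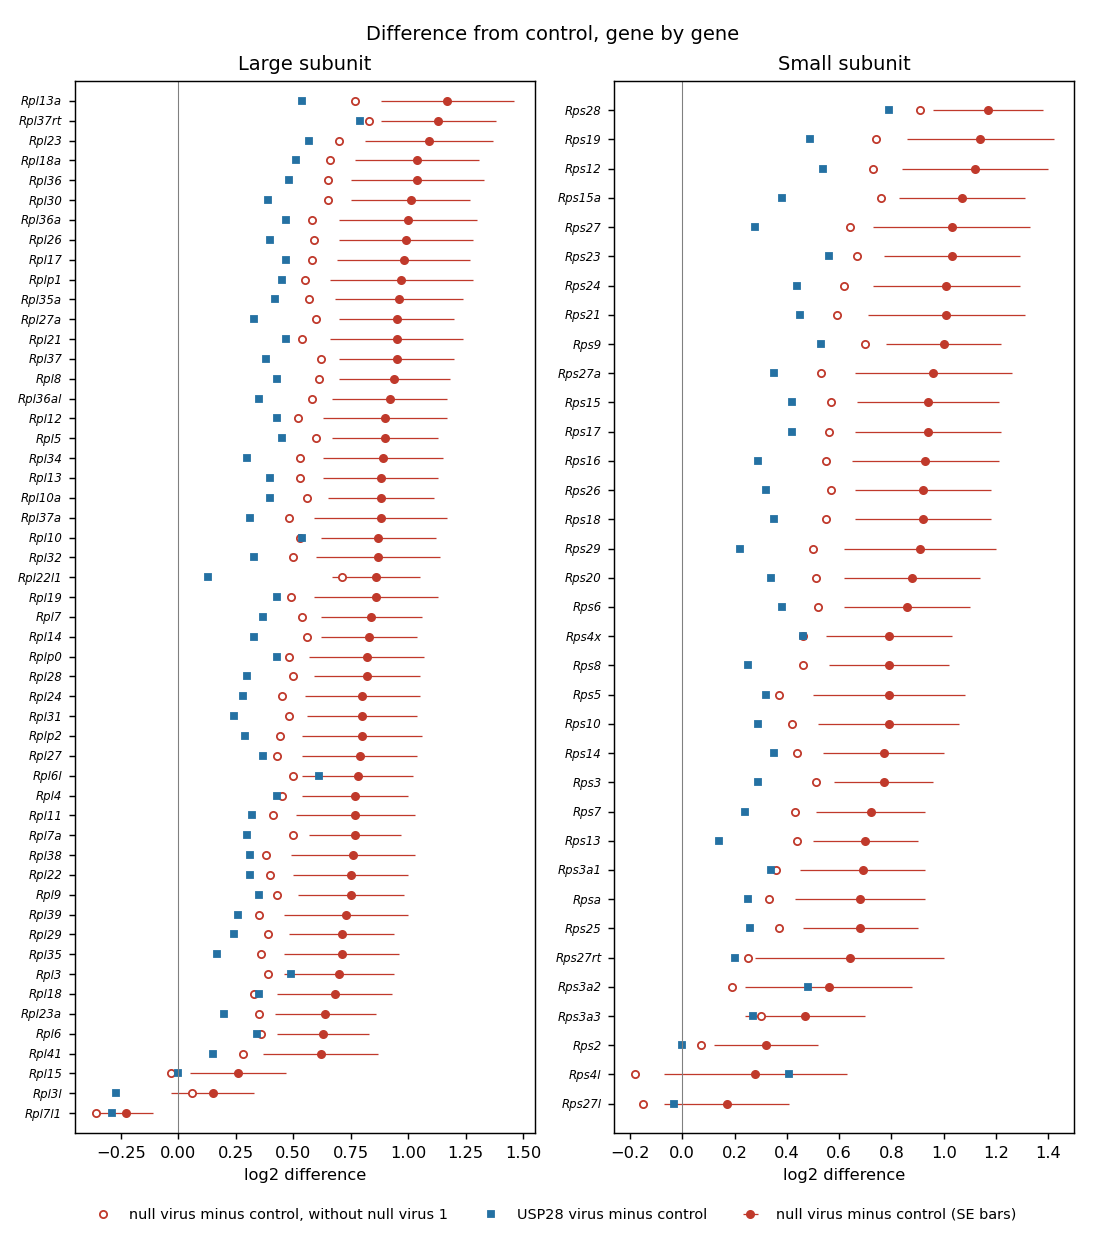
Log2 difference from control (horizontal axes) of the members tested (1 is not drawn), large subunit with its paralogs at left and small subunit at right; filled circles are null virus minus control with SE bars, open circles the same without null virus replicate 1 and squares USP28 virus minus control. Rps28 and Rpl13a lie at 1.17, while Rpl7l1 lies at -0.23, and the open circles are to the left of the filled ones in every row drawn.

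Among core members, 2 stood aside once null virus replicate 1 was left out. Rpl15, a large-subunit protein, was at 31.2, 31 and 31 scaled RPKM in control, 56.2, 30.9 and 29.8 under null virus and 31.2, 31.4 and 30.9 under USP28 virus. Its level was thus nearly the same in 8 of 9 libraries, and its log2 difference of 0.26 (adjusted p = 0.4) was -0.03 (SE 0.05, adjusted p = 0.65) without null virus replicate 1. Rps2, a small-subunit protein at the messenger RNA entry channel, had 87.4, 75.3 and 81.8, then 145, 88.2 and 82.1, then 76.6, 81.8 and 86.5. Its groups overlapped, with a difference of 0.32 (adjusted p = 0.27) that was 0.07 (adjusted p = 0.59) without that library. These were the only core members in which null virus and control overlapped, and both were named after their values had been seen.

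Paralogs and copies differed more among themselves than core members did. Of 13, 11 were tested, with 4 higher and 0 lower (10.2% and 12.2% of all genes) and a median log2 difference of 0.56. Without null virus replicate 1, 4 were higher and 1 lower (15.1% and 16.6% of all genes), with a median of 0.25. Rpl3l was abundant in every group, at 129, 97.7 and 135 scaled RPKM in control, 151, 142 and 109 under null virus and 89.9, 92.3 and 116 under USP28 virus. All 3 groups overlapped in part, and the difference between null virus and control was 0.15 (SE 0.18, adjusted p = 0.56), or 0.06 (adjusted p = 0.83) without null virus replicate 1. Its partner Rpl3 had 34.4, 32.9 and 27.4, then 79, 39.8 and 42.7, then 50.2, 43.1 and 39.8. Every db/db library was above every control for Rpl3, with a difference of 0.70 (adjusted p = 0.067) that passed without null virus replicate 1 at 0.39 (adjusted p = 0.042).

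The ratio of Rpl3l to Rpl3, per length, was 3.74, 2.98 and 4.92 in control, 1.92, 3.57 and 2.54 under null virus, and 1.79, 2.14 and 2.92 under USP28 virus. It was lower in all 3 USP28-virus libraries than in all controls, and overlapping between control and null virus. Its absolute level, above 1 in every library, depends on the deposited lengths of 1643 bases for Rpl3l and 3119 for Rpl3. It is therefore no measure of which of these transcripts was more abundant. Exact two-sided permutation tests of the log2 ratio gave p = 0.2 for null virus against control and p = 0.1 for USP28 virus against control, the smallest p that 3 against 3 allows. Over the 15 ratio comparisons made, adjusted values were 0.38 and 0.25. The log2 difference of this ratio between null virus and control was -0.55, or -0.33 without null virus replicate 1.

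Rpl7l1, related to Rpl7 and placed with pre-ribosomes rather than mature ribosomes, went the other way. It was at 21.7, 22.1 and 22.1 scaled RPKM in control, 22.6, 15.9 and 18.3 under null virus and 18.1, 17.3 and 18.6 under USP28 virus. All db/db libraries except null virus replicate 1 were below all controls. The difference of -0.23 (adjusted p = 0.21) between null virus and control became -0.36 (SE 0.07, adjusted p = 0.0084) without that library. Rpl7 itself had 87.8, 82.5 and 84.6, then 228, 128 and 120, then 115, 104 and 111, and rose by 0.84 (adjusted p = 0.026), or 0.54 without null virus replicate 1. The ratio of Rpl7l1 to Rpl7 was 0.259 ± 0.0105 in control, 0.126 ± 0.0267 under null virus and 0.164 ± 0.00618 under USP28 virus (SD, n = 3), with no overlap between groups (exact permutation p = 0.1 in each comparison, adjusted 0.25).

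Rps27l, a paralog of Rps27 known as a target of p53, was at 16.5, 12.9 and 15.7 scaled RPKM in control, 26.2, 13.9 and 13 under null virus and 14.6, 14.4 and 15 under USP28 virus. Only null virus replicate 1 left the control range, and the difference of 0.17 (adjusted p = 0.64) was -0.15 (adjusted p = 0.3) without it. Rps27 had 11.6, 11.9 and 10.6, then 40.3, 18.8 and 16.7, then 16.8, 13.6 and 11.4. It rose by 1.03 (adjusted p = 0.039), and by 0.64 (adjusted p = 0.014) without null virus replicate 1, while its USP28-virus libraries overlapped the controls. Rps27l per Rps27 was 1.33 ± 0.219 in control, 0.724 ± 0.0664 under null virus and 1.08 ± 0.223 under USP28 virus (exact permutation p = 0.1, adjusted 0.25, for null virus against each other group).

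**Figure D3:**
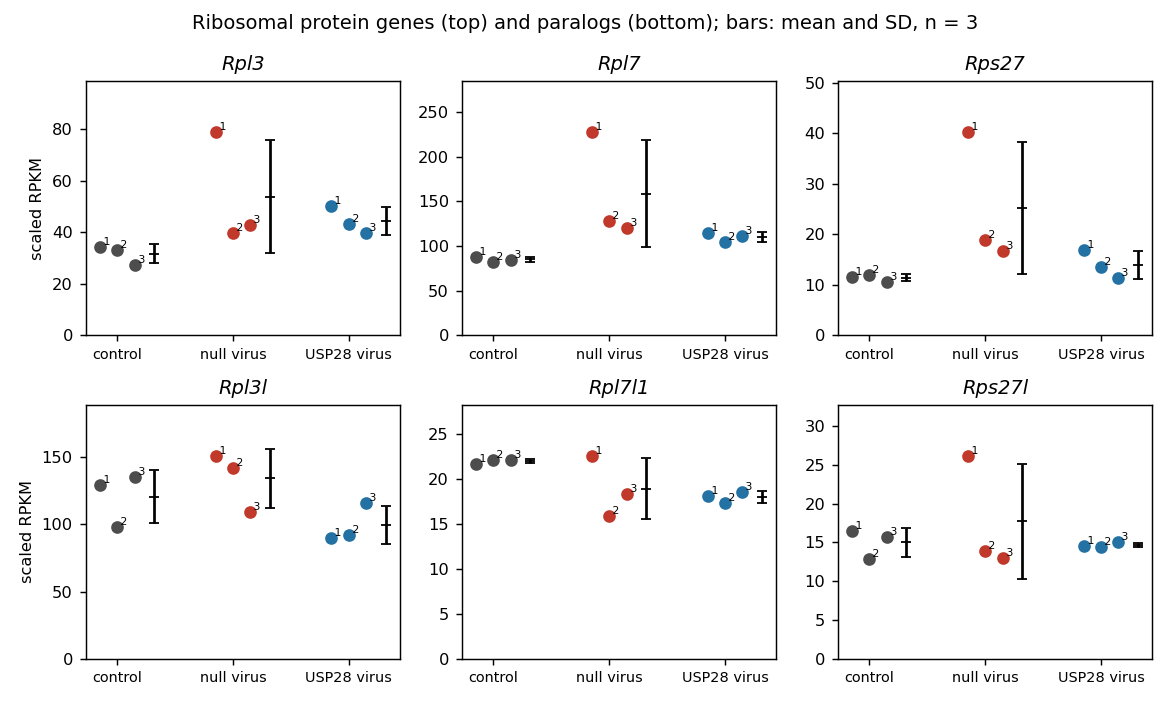
Scaled RPKM (vertical axes, from 0) in each library of Rpl3, Rpl7 and Rps27 (top) and their paralogs Rpl3l, Rpl7l1 and Rps27l (bottom); points are libraries with their replicate number, bars the mean and SD, n = 3. The 3 null-virus points of Rpl7 lie above its controls, whereas Rpl7l1 is at 15.9 and 18.3 in null-virus replicates 2 and 3 and at 21.7 to 22.1 in control.

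Rpl22l1, the paralog of Rpl22, was low, at 0.561, 0.658 and 0.64 scaled RPKM in control, 1.5, 1.08 and 1.06 under null virus and 0.839, 0.553 and 0.697 under USP28 virus. All null-virus libraries were above all others, and Rpl22l1 rose by 0.86 (SE 0.19, adjusted p = 0.014), or 0.71 (adjusted p = 0.02) without null virus replicate 1. Rpl22 had 36.2, 34.6 and 33.8, then 95.9, 46.2 and 45.9, then 45.4, 42.8 and 41.3, a difference of 0.75 (adjusted p = 0.06) that passed at 0.40 (adjusted p = 0.0027) without that library. Rpl36a, on chromosome X, rose from 27.8 ± 1.81 to 60.8 ± 33.1 (SD, n = 3, adjusted p = 0.042), its libraries going from 29.2, 25.8 and 28.5 to 98.9, 44.7 and 38.8, with 36.4, 39 and 40.3 under USP28 virus. Its paralog Rpl36al rose by 0.92 (adjusted p = 0.03), from 23.4, 24.2 and 25.4 to 74.2, 36.9 and 35.8, with 33, 28.6 and 31.5 under USP28 virus. Both rose by 0.58 without null virus replicate 1 (adjusted p = 0.0022 for Rpl36a and 0.0013 for Rpl36al). The ratio of Rpl36al to Rpl36a was 0.878 ± 0.0711, 0.833 ± 0.0861 and 0.808 ± 0.0895 in the 3 groups, differences smaller than their spread (exact permutation p = 0.3 to 0.7).

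Rpl39, at the exit tunnel of the large subunit, went from 6.63, 6.03 and 6.84 scaled RPKM to 18.4, 8.79 and 7.86, with 8.44, 7.66 and 7.39 under USP28 virus. All db/db libraries were above all controls, but the difference of 0.73 had an adjusted p = 0.083, and 0.35 (adjusted p = 0.022) without null virus replicate 1. Its paralog Rpl39l, best known from testis, was listed at 0 in 7 of 9 libraries and at most had 2 reads. Rps12l1, annotated as a processed pseudogene, was at 0.181 to 0.909 and was not tested.

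Copies of core genes were low, and reads from near-identical sequences may have been divided between them by the counting, so their values are uncertain. Rpl37rt, a retrotransposed copy of Rpl37, had 2.35, 1.83 and 1.9 scaled RPKM in control, 6.93, 3.83 and 3.5 under null virus and 3.67, 4.1 and 2.98 under USP28 virus, with every db/db library above every control. It rose by 1.13 (adjusted p = 0.014), or 0.83 without null virus replicate 1. Rpl6l rose by 0.78 (adjusted p = 0.046), or 0.50 (adjusted p = 0.047) without that library, from 5.96, 4 and 5.15 to 12.6, 6.55 and 7.69, with 8.5, 7.11 and 7.44 under USP28 virus. Rps27rt (1.93, 1.37 and 1.17, then 4.08, 1.34 and 2.28, then 2.23, 1.53 and 1.42) did not pass, at 0.64 (adjusted p = 0.23), or 0.25 (adjusted p = 0.55). Rps4l, annotated as a transcribed pseudogene, had 6.91, 5.45 and 8.31, then 15.6, 5.64 and 6.34, then 9.66, 7.84 and 9.82, a difference of 0.28 (adjusted p = 0.59) that was -0.18 without null virus replicate 1. Reads on the 199 pseudogene rows amounted to 1.67% to 1.98% of the members' reads in every library, and 18 of the 82 tested rose and 0 fell, with a median of 0.67. Leaving out null virus replicate 1 gave 21 of 73, 0 lower and a median of 0.41. Of all genes, 10.2% rose with 9 libraries and 15.1% without that library.

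The values of the members were set beside gene length and level, since ribosomal protein transcripts are short and abundant. Length here is that of the deposited gene model, which can exceed that of the messenger RNA. Members in the longer classes may thus have short messenger RNAs, and the part of messenger RNA length was not tested. Members under 1000 bases had a median log2 difference of 0.91 between null virus and control, and those of 3000 bases and over 0.89. Other genes had 0.18 and -0.06 in the same classes. Without null virus replicate 1 the members had 0.55 and 0.52 and the other genes 0.09 and -0.03. At 100 scaled RPKM and over, 28 members had a median of 0.88 and 305 other genes 0.21. Over the 77 core members, Spearman's rho of the difference was -0.16 with length, 0.03 with GC content and -0.01 with level, given as a description since all points share the same libraries. With a trend on gene length removed from each library, 65 members were called higher and the median was 0.75. In null virus replicate 1 short genes outside the members also lay higher, with a median departure from the control mean of 0.36 for genes under 1000 bases, where the other 8 libraries ran from -0.03 to 0.11. The part of that shift in the members' level in this library was not tested beyond the removal of the trend.

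**Figure D4:**
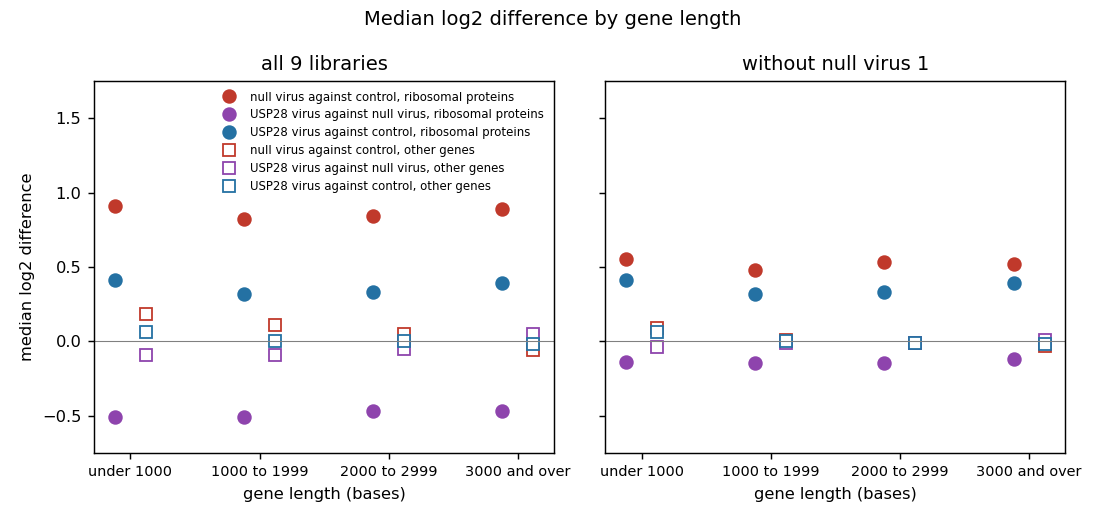
Median log2 difference (vertical axis) of the ribosomal protein genes (filled circles) and of all other genes (open squares) in 4 classes of gene length (horizontal axis, bases), with all 9 libraries at left and without null virus replicate 1 at right; colours are the 3 comparisons. For null virus against control the filled circles stay between 0.82 and 0.91 at left and 0.48 and 0.55 at right, while the squares lie between -0.06 and 0.18.

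Markers of cell types also differed between the groups. Of all genes tested, 10.2% rose and 12.2% fell between control and null virus, or 15.1% and 16.6% without null virus replicate 1. Of 8 ventricular cardiomyocyte markers, 0 rose and 1 fell, or 0 and 5 without that library. Endothelial markers (6 genes, led by Fabp4) summed to 139 to 163 RPKM in control, 279 to 374 under null virus and 227 to 260 under USP28 virus, and 3 of 6 rose and 0 fell between control and null virus, or 4 and 1 without null virus replicate 1. Neutrophil markers (4 genes, led by S100a9, the only one above the filter) summed to 9.81 to 17.4 in control, 2.07 to 3.35 under null virus and 0.619 to 2.06 under USP28 virus. Of 7 fibroblast markers 0 rose and 4 fell (1 and 4 without that library), and of 6 macrophage markers 0 rose and 3 fell (0 and 3), while summed fibroblast levels overlapped (75.4 to 90.7 in control, 73.4 to 84.5 with null virus). Atrial markers (4 genes) summed to 1435 in USP28-virus replicate 1 and to 341 or less elsewhere. Nppa led them, and the next highest averaged 10.7 over all libraries. Erythroid markers reached 522 in control replicate 2. The part of cell types in the ribosomal protein result was not tested.

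Genes that act with the ribosome were described from lists. Among ribosomal proteins whose names fall outside the rule, Fau and Rack1 rose. Fau, which encodes the small-subunit protein eS30 fused to a ubiquitin-like leader, had 99.2, 96.5 and 107 scaled RPKM in control, 340, 156 and 139 under null virus and 151, 136 and 156 under USP28 virus, and rose by 0.95 (adjusted p = 0.046, limma). Rack1, the scaffold on the head of the small subunit, rose by 0.73 (adjusted p = 0.036). Without null virus replicate 1 both were also called higher, at 0.55 and 0.46 (adjusted p = 0.0025 and 0.0065).

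Of 24 other TOP messenger RNAs and host genes, 13 were higher and 1 lower, with a median of 0.60, where 10.2% and 12.2% of all genes were called. Leaving out null virus replicate 1 gave 17 higher, 2 lower and a median of 0.37, where 15.1% and 16.6% of all genes were called. Gas5, a non-coding TOP transcript that hosts small nucleolar RNAs, was at 4.19, 3.8 and 4.03 in control, 13.5, 8.56 and 8.29 under null virus and 7.76, 6.66 and 6.7 under USP28 virus. Its groups did not overlap, and it rose by 1.28 (SE 0.18, adjusted p = 0.0024), or 1.06 (adjusted p = 0.00033) without that library. Snhg8 and Snhg6, host genes of the same kind, rose by 1.28 (adjusted p = 0.013) and 1.12 (adjusted p = 0.022), or 0.97 and 0.77 without it. Snhg1, another host gene on the list, did not pass, at 0.60 (adjusted p = 0.14, limma), or 0.37 (adjusted p = 0.31) without null virus replicate 1. Eef1a1, which brings aminoacyl-tRNA to the ribosome, rose by 0.74 (adjusted p = 0.0096), and Eef2, which moves the ribosome along, by 0.60 (adjusted p = 0.0055), or 0.59 and 0.55 without it. Npm1, a nucleolar chaperone, rose by 0.66 (adjusted p = 0.009), or 0.52 without it. Tpt1 was at 0.60 (adjusted p = 0.081) with 9 libraries and was called higher without null virus replicate 1, at 0.31 (adjusted p = 0.013). A list of elongation factors and genes named after them had 9 genes tested, some of them TOP messenger RNAs too. Of these, 4 were higher and 1, Eef1e1, lower, with a median of 0.54. Leaving out null virus replicate 1 gave the same counts and a median of 0.31. Eef1e1 and Eef2k, a kinase that acts on Eef2, are not elongation factors themselves. Eef2k was called higher with 9 libraries (0.54, adjusted p = 0.046, limma) and not without null virus replicate 1 (0.41, adjusted p = 0.071).

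Groups upstream of the ribosome shifted less, with counts to be read beside 10.2% of all genes called higher and 12.2% lower. Of 37 translation initiation factors 8 were higher and 4 lower (median 0.13), and of 63 ribosome biogenesis genes 8 were higher and 4 lower (median 0.14). Myc, a transcription factor that drives ribosome production, rose by 1.21 from a low level (adjusted p = 0.03), or 0.90 (adjusted p = 0.045) without null virus replicate 1. The nucleolar protein Fbl did not pass, at 0.31 (adjusted p = 0.13) or 0.18 (adjusted p = 0.24). Of 19 genes of mTORC1 signalling and TOP regulation, 2 were higher and 5 lower (median -0.19). Larp1 had 8.95, 10 and 10.3 scaled RPKM in control, 5.04, 6.11 and 6.93 under null virus and 5.99, 6.86 and 6.71 under USP28 virus, with every db/db library below every control. It fell by 0.69 (SE 0.13, adjusted p = 0.0072), a log2 difference of -0.57 (adjusted p = 0.0038) without null virus replicate 1. Eif4ebp1, a translation inhibitor that mTORC1 switches off, rose by 0.97 (adjusted p = 0.029), and Ddit4, an inhibitor of mTORC1, by 1.52 (adjusted p = 0.002), or 0.61 and 1.60 without that library. Ribosome quality control genes (12, 0 higher and 1 lower, median -0.17) and nascent chain and folding genes (15, 1 higher and 2 lower, median 0.17) completed the lists. Leaving out null virus replicate 1 gave 11 higher and 6 lower initiation factors (median 0.13), 8 higher and 12 lower biogenesis genes (median 0.01), and 2 higher and 5 lower genes of mTORC1 and TOP regulation (median -0.06). Ribosome quality control then had 1 higher and 2 lower, and nascent chain and folding 3 higher and 2 lower. Of all genes, 15.1% were then called higher and 16.6% lower. Of 78 mitochondrial ribosomal protein genes 0 rose and 6 fell (median -0.01), and without null virus replicate 1 2 rose and 26 fell (median -0.19). At the level of libraries their median departure from control was 0.39 in null virus replicate 1 and -0.27 to -0.15 in the other db/db libraries.

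**Figure D5:**
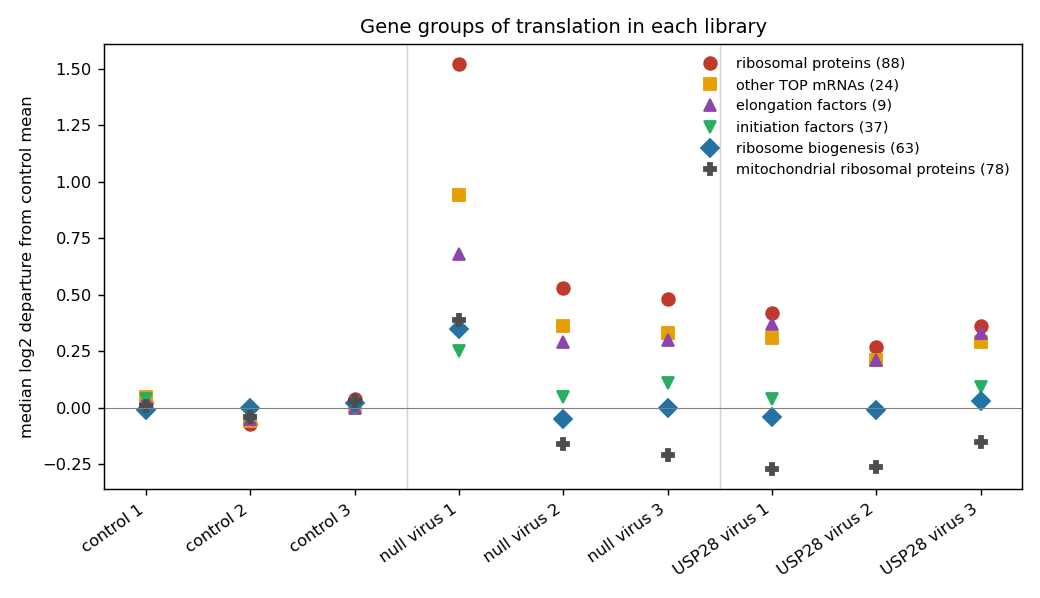
Median log2 departure from the control mean (vertical axis) of 6 gene groups in each of 9 libraries; each symbol is the median over the genes of a group, with the number of genes in the legend. Cytosolic ribosomal protein genes have the highest median in all 6 db/db libraries, from 0.27 to 1.52, and mitochondrial ribosomal protein genes lie below 0 in 5 of them.

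Between USP28 virus and null virus, the ribosomal protein genes were lower on average with USP28 virus, and no single member passed. The median log2 difference was -0.48, beside 0.00 for all genes, and 87 of 88 members were below 0. By limma 0 were called higher and 0 lower, where 0.269% and 0.156% of all genes were called, and the lowest adjusted p was 0.12. At an unadjusted p under 0.05, 21 members were lower and 0 higher, where 8.66% and 7.99% of all genes were. Limma voom called 0 in either direction, with 42 at an unadjusted p under 0.05. In 47 members all 3 USP28-virus libraries were below all 3 null-virus libraries, where 11.8% of all genes were. Without null virus replicate 1 the median was -0.15, 0 members were called in either direction (2.94% and 3.4% of all genes were called higher and lower), 28 were lower and 1 higher at an unadjusted p under 0.05 (12.4% and 11.1% of all genes), and the lowest adjusted p was 0.073. The single library thus set the larger part of the median, -0.48 with it and -0.15 without it.

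Members with the smallest p in this comparison included Rpl22l1, Rps15a, Rps13 and Rps27. The log2 difference of Rpl22l1 was -0.72 (SE 0.19, adjusted p = 0.12), or -0.57 (adjusted p = 0.1) without null virus replicate 1, with USP28-virus libraries overlapping those of control. For Rps15a it was -0.68 (SE 0.24, adjusted p = 0.21), or -0.37 (adjusted p = 0.11). Rps13 had -0.56 (SE 0.20, adjusted p = 0.21), or -0.30 (SE 0.08, adjusted p = 0.073), and its mean of 15.3 ± 1.03 with USP28 virus lay near that of 13.8 ± 0.873 in control (SD, n = 3). Rps27 had -0.76 (SE 0.30, adjusted p = 0.25), or -0.36 (adjusted p = 0.19).

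Further members named above are given here with and without null virus replicate 1. The difference of Rpl10 was -0.33 (adjusted p = 0.5) with it and 0.01 (SE 0.08, adjusted p = 0.97) without it, and that of Rplp0 -0.39 (adjusted p = 0.44) and -0.05 (SE 0.08, adjusted p = 0.77). Rpl3 had -0.21 (adjusted p = 0.67) and 0.10 (adjusted p = 0.68), and Rpl3l -0.43 (SE 0.18, adjusted p = 0.28) and -0.33 (SE 0.18, adjusted p = 0.32). Rps4l was the member above 0 with 9 libraries, at 0.13 (adjusted p = 0.87). Without null virus replicate 1 it was at 0.59 (SE 0.17, adjusted p = 0.089), with all 3 USP28-virus libraries above null-virus replicates 2 and 3.

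Hearts that had received USP28 virus still had more ribosomal protein transcript than control hearts, by a smaller margin. The median log2 difference was 0.35, beside 0.00 for all genes, and in 74 members all USP28-virus libraries were above all controls, where 21.4% of all genes were. With 9 libraries in the fit, 1 member of 88 was called higher and 0 lower, where 5.32% and 6.53% of all genes were called. At an unadjusted p under 0.05, 4 were higher and 1 lower (12.8% and 15.5% of all genes), and limma voom called 1 higher and 0 lower. The called member was Rps28, with a difference of 0.79 (SE 0.21, adjusted p = 0.039) and a mean of 14.3 ± 0.0332 scaled RPKM against 8.23 ± 0.998 (SD, n = 3). It was no longer called when any 1 of the 3 controls or of the 3 USP28-virus libraries was left out. All 9 libraries share 1 estimate of the spread, so null virus replicate 1 enters this comparison although it is in neither group. Without it, 72 members rose and 1 fell (13.4% and 15.8% of all genes), at the same median of 0.35. A fit of these 2 groups alone called 70 higher and 1 lower.

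Values in that fit without null virus replicate 1 were 0.79 for Rps28 (SE 0.09, adjusted p = 0.001, limma), 0.79 for Rpl37rt (adjusted p = 0.0046), 0.54 for Rpl10 (adjusted p = 0.0017) and 0.53 for Rps9 (adjusted p = 0.00098). Of these only Rps28 passed with 9 libraries, where Rpl10 had an adjusted p = 0.19 and Rps9 0.15 (limma) at the same differences. Stalk genes rose by 0.43 (Rplp0, adjusted p = 0.0045), 0.45 (Rplp1, adjusted p = 0.0067) and 0.29 (Rplp2, adjusted p = 0.023). None of them passed with 9 libraries (adjusted p = 0.3, 0.37 and 0.51 in the same order, limma). Rpl3 rose by 0.49 (adjusted p = 0.012, or 0.22 with 9 libraries), while Rpl3l was at -0.27 (adjusted p = 0.25, or 0.36 with 9 libraries). The member that fell was Rpl7l1, at -0.29 (SE 0.07, adjusted p = 0.014, or 0.16 with 9 libraries), with 18 ± 0.685 scaled RPKM against 22 ± 0.225 in control. Small-subunit genes were called higher in 26 of 31 cases and large-subunit genes in 43 of 46, where 13.4% of all genes were. With 9 libraries these counts were 1 and 0, where 5.32% of all genes were called higher. The comparisons with control share the control libraries, and both db/db comparisons share the null-virus libraries, so their values are given side by side and were not correlated.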

How the data were processed

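Per the labels' protocols, polyadenylated RNA was made into directional libraries. The deposited table holds RPKM, computed by the authors, with gene length. HISAT2, DESeq2 and the human build GRCh38 are named without roles in the submitters' processing notes. For the counting program, its strand setting and the annotation, the sources used here give nothing. Spans of 75 of 90 members equal those of GENCODE M21 on GRCm38, so positions are given on that build. RPKM times length was a whole multiple of 1 step per library, within 0.01 reads, for all members, which gave the recovered reads and each depth.

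Scaling was by a trimmed mean of M values (30% of ratios and 5% of levels trimmed). Log2(scaled RPKM + 0.1) of 14104 genes was fitted in R 4.3.3 with limma 3.58.1, trend and robust options on, in 1 fit of 9 libraries in 3 groups, and Benjamini-Hochberg adjustment over all genes per comparison. Differences are on that scale, which understates those of low genes. "Rose" and "fell" mean adjusted p under 0.05. A level listed at 0 allows up to 3 reads by counting error. No pair of libraries held identical values. Same-numbered libraries did not deviate together (r of -0.029 to 0.060), so numbers were not taken as pairs. The fit was tested on simulated data.

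The members, lists and tests were chosen with earlier results of these data known. Named were the stalk genes, Rpsa, paralog pairs, the members with the smallest p in each comparison, and those with the highest and lowest levels. Rpl15, Rps2 and Rpl13a, and genes outside the members, were named after their values were seen. Alternatives were other scalings, filters, pseudocounts, thresholds and tests, 2 groups alone, the replicate block, the removal of length trends and each library left out. Matplotlib 3.10.9 drew the figures. The removal of GC trends was added after seeing the data. Values of 2 genes are not reported here.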

Additional observations from a re-analysis of the deposited data

How the results depend on the processing

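For null virus against control, the count of members called higher (57) was 6 with no low-value filter, 5 with 2 groups alone and 2 to 78 with each library left out, while the count called lower was 0 to 1. It kept within 1.5 times under the other settings. The median ran from 0.51 to 1.03 with each library left out, and was 0.47, with 1 member lower, when length and GC trends were removed without null virus replicate 1. For USP28 virus against control, the count called higher (1) was 0 with no filter, 2 with library totals alone, with the length trend removed, with length and GC trends removed and at a threshold of adjusted p 0.1, 70 with 2 groups alone (1 lower), 69 with length and GC trends removed without null virus replicate 1 (1 lower), and 0 to 72 with each library left out (0 to 1 lower). For USP28 virus against null virus the counts stayed at 0 under every setting run. With each library left out, the calls over all genes in either direction ran from 1459 to 4436 for null virus against control. They ran from 374 to 4089 for USP28 virus against control and from 0 to 887 for USP28 virus against null virus. The cause of these changes was not tested. A lost library or group leaves fewer samples and also alters the shared estimate of the spread.

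With the replicate block, 55 members were higher and 0 lower for null virus against control (median 0.85), 0 for USP28 virus against null virus, and 2 higher for USP28 virus against control, or 3 with the length trend also removed. Without mitochondrially encoded genes the members' mean share of summed RPKM was 1.51%, 2.33% and 1.89% in control, null virus and USP28 virus.

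Small differences of members that had not passed changed sign in some settings. With each library left out, null virus minus control ran from -0.15 to 0.35 for Rps27l and from -0.18 to 0.55 for Rps4l. USP28 virus minus null virus ran from -0.40 to 0.10 for Rpl3, -0.38 to 0.12 for Rps27l, -0.18 to 0.07 for Rpl7l1, -0.51 to 0.01 for Rpl10, -0.36 to 0.11 for Rpl6l and -0.14 to 0.59 for Rps4l. USP28 virus minus control ran from -0.13 to 0.04 for Rps27l. With length and GC trends removed and null virus replicate 1 left out, null virus minus control was -0.03 for Rpl3l, -0.14 for Rps27l and -0.28 for Rps4l, USP28 virus minus null virus 0.11 for Rpl3, 0.16 for Rps27l, 0.09 for Rpl7l1, 0.02 for Rpl10, 0.13 for Rpl6l and 0.01 for Rps4x, and USP28 virus minus control 0.02 for Rps27l. With those trends removed from all 9 libraries, Rpl7l1 was at 0.01 against null virus and Rps27l at 0.01 against control. With library totals alone they were at 0.03 and 0.04. Low members such as Rpl22l1 and Rps27rt rest on few reads, which limits their precision.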
